A study of Mus musculus with 9 samples.

Results

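The comparison described here set MyC-CaP cells collected 24 h after NRG1 was added against starved cells collected at 0 h, and used 6 of the 9 libraries of the series, 3 at each time. MyC-CaP is a mouse prostate cancer line that was grown from a tumor driven by a MYC transgene placed under a prostate-specific promoter, so all values come from 1 line. All cells, including those of the 0 h group, had been starved for 6 to 12 h in medium free of serum and calcium. The 24 h group then received 15 ng/mL recombinant NRG1. The labels call the 0 h group NRG1-treated as well and do not say whether it received buffer. No library without NRG1 at 24 h was analysed here, so 24 h of NRG1 and 24 h more in that medium cannot be told apart. Every gene with enough counts was examined, which was 11373 of the 15552 protein-coding genes in the table. The remaining 12 h libraries entered the fit only to share the estimate of the spread and are named where they place a 24 h value in time.

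NRG1 is a growth factor that binds HER3, a receptor with little kinase activity of its own. Binding pairs HER3 with HER2, whose kinase then feeds the ERK cascade and PI3K and AKT signaling. These routes are known for driving cells into division, for raising protein, lipid and amino acid supply, and for keeping FOXO transcription factors out of the nucleus. The results are therefore given by function, with the direction of change first and the groups of genes outside division after it.

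Libraries held between 28467089 and 39239760 counts, and 3 counts, the limit that a count of 0 allows, correspond to 0.0764 to 0.106 counts scaled to library size (CPM, which stands for counts per 1e6). This limit covers counting error only. The first principal component of the 6 libraries, with 41.8% of the variance, placed the 0 h group at -15.5 to -9.84 and the 24 h group at 12 to 13. Replicate 1 at 0 h stood apart on the second component, with 16.4% of the variance, at 13.6 against -9.05 to 4.70 for the other 5. Replicate 2 at 24 h held the most genes with a count, 13541 against 13115 to 13369 in the others, and 68 genes had at least 3 counts in it and 0 in each other library of the series, against 5 to 28 for the others, among them the markers of other cell types Chga, Col3a1 and Rgs5. The labels call the cells epithelial-like. Of the defining epithelial and luminal markers, Foxa1, Hoxb13 and Krt19 were at means of 281, 84.3 and 98.7 CPM at 0 h, Krt8 was at 18.2 CPM, and Krt18, Cdh1 and Epcam were at 0.253, 0.0824 and 0 CPM. Of 15 leukocyte markers in the table, all 15 lay under 1 CPM, and their summed level ran from 0.674 to 1.1 CPM at 0 h and from 0.917 to 1.64 CPM at 24 h.

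More genes rose than fell at 24 h. A leave-one-out fit repeats the test without 1 of the 6 libraries. A gene was called when its edgeR quasi-likelihood test, adjusted by Benjamini and Hochberg's method over all genes, gave p of at most 0.05 and its fold change was at least 1.5. Called genes numbered 191 higher, or 1.68% of those tested, and 67 lower, or 0.589%, together 258 or 2.27%. Without 0 h replicate 1 the calls were 125 higher and 57 lower, and in the other 5 leave-one-out fits they ranged from 174 to 222 higher and from 47 to 65 lower. Of the called genes, 99 of 191 higher and 29 of 67 lower were called in all 6 of these fits. Most changes were small, and glmTreat, which asks whether a change exceeds 1.5-fold, called 5 genes higher and 1 lower. Just inside the threshold lay Hells (1.50027-fold), which encodes a chromatin remodeler of dividing cells, and Slc2a9 (0.666055-fold), a urate transporter gene. Cgas, the cytosolic DNA sensor gene, was just outside at 1.49835-fold, and so was Arsg, a lysosomal sulfatase gene, at 0.667375-fold.

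The excess of rises was largest at fold thresholds of 1.25 and 1.5 and lay largely in the cell cycle list. With the adjusted p alone, 1100 genes (9.67%) were higher and 882 (7.76%) lower, a ratio of 1.25, and without 24 h replicates 2 or 3 the numbers lower were 539 and 533. The ratio of higher to lower genes was 2.56 among changes of at least 1.25-fold, 2.85 at 1.5-fold, 1.24 at 1.75-fold and 1.15 at 2-fold, where 23 genes were higher and 20 lower. Without 0 h replicate 1 these ratios were 2.73, 2.19, 1.15 and 1.06. Of the 242 tested members of the cell cycle list, 225 passed higher and 0 lower and 96 were called, and the list median on the log2 scale was 0.55. Without 0 h replicate 1, 212 members passed higher and 52 were called. None of the list's changes reached 2-fold. The list, like the others, was chosen with earlier results of these data known. Outside the list, 875 genes passed higher and 882 lower, and 95 were called higher against 67 lower. These numbers were 73 and 57 without 0 h replicate 1, and 578 passed higher and 533 lower without 24 h replicate 3. A further 21 division and repair genes were chosen after their values were seen, and all 21 were called higher. Setting them aside as well could therefore only lower the number of higher calls, and left 74 higher and 67 lower. In the leave-one-out fits these numbers ran from 58 and 57 without 0 h replicate 1 to 90 and 57 without 0 h replicate 2. With no threshold at all, 5443 genes had a positive and 5930 a negative log2 fold change.

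**Figure D1:**
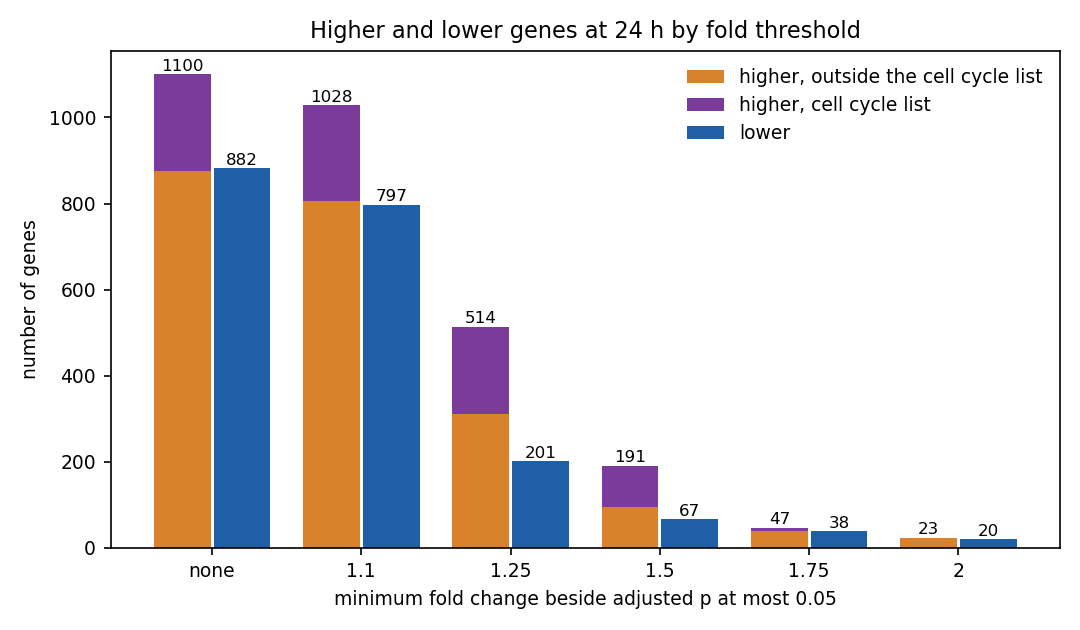
Number of genes with an edgeR adjusted p of at most 0.05 at 24 h against 0 h (y axis) for 6 minimum fold changes (x axis), higher genes in the left bar of each pair, split by the cell cycle list, and lower genes in the right bar. Outside the list the higher and lower bars are close at every threshold except 1.25, where 312 genes were higher and 201 lower, and 1.5.

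Among called genes the direction also went with the level of the gene, and much of this lay in the cell cycle list. Among called genes with a mean under 1 CPM over the 6 libraries, 12 were higher and 18 lower. From 1 to 10 CPM the numbers were 69 and 33, from 10 to 100 CPM 104 and 13, and above 100 CPM 6 and 3. Of the 104 rises from 10 to 100 CPM, 74 were on the cell cycle list. Outside that list the numbers from 1 CPM up were 52 and 33, 30 and 13, and 1 and 3. Without 0 h replicate 1 the numbers over all genes, from the lowest level up, were 8 and 11, 52 and 34, 60 and 10, and 5 and 2. The median level was 23.1 CPM for called genes of the cell cycle list, 4.74 CPM for the other called higher genes and 2.42 CPM for the called lower genes. Called falls were thus found mainly among weakly expressed genes, while with the adjusted p alone the median level was 62.1 CPM for lower and 35.7 CPM for higher genes. Absolute log2 fold changes had a median of 0.65 in the first class, 0.76 in the second and 0.85 in the third. Values at 24 h that did not overlap those at 0 h were no more frequent on the side of the rises, with 1999 genes (17.6%) higher and 2037 (17.9%) lower.

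**Figure D2:**
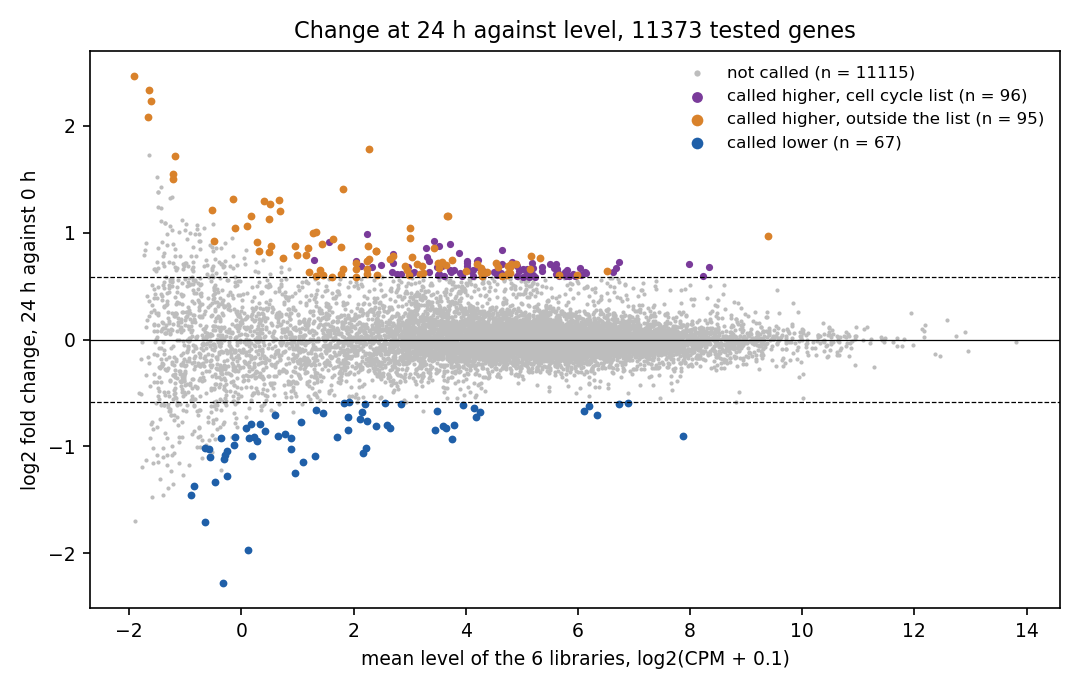
Log2 fold change at 24 h against 0 h (y axis) by the mean level of the 6 libraries (x axis, log2 scale after adding 0.1 CPM) for each of 11373 tested genes, with dashed lines at 1.5-fold. Called genes of the cell cycle list lie in a narrow band above the upper line, and called lower genes lie mostly to the left, with a median level of 2.42 CPM.

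**Figure D3:**
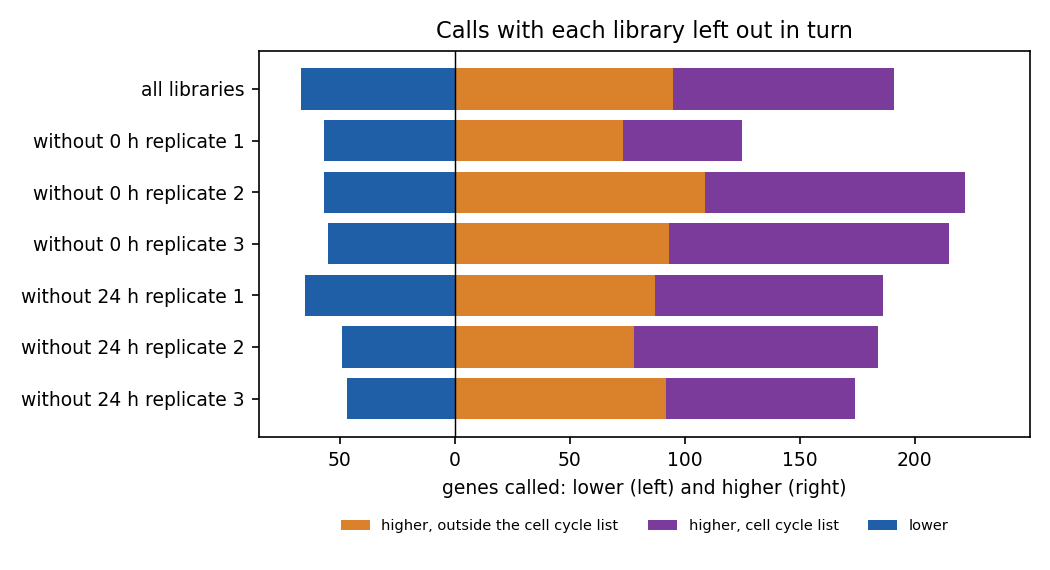
Genes called higher (right of 0, split by the cell cycle list) and lower (left of 0) with all libraries and with each of the 6 compared libraries left out. The number higher drops from 191 to 125 without 0 h replicate 1, where the cell cycle list gives 52 in place of 96.

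Within the cell cycle list, the largest rises above the level limit of 5 CPM for named genes were in Fbxo5, which encodes an inhibitor of the anaphase-promoting complex, Kif18a, a mitotic kinesin gene, and E2f8, an atypical E2F repressor gene. Fbxo5 measured 6.78, 7.1 and 8.39 CPM at 0 h and 13.9, 14.7 and 13.7 CPM at 24 h in replicates 1 to 3, with no overlap (log2 change 0.92 with an SE of 0.089 and edgeR adjusted p = 2.07e-06). Kif18a rose from 9.17 ± 0.792 CPM to 17 ± 0.808 CPM (SD, n = 3) and E2f8 from 8.03 ± 0.479 CPM to 14.7 ± 1.01 CPM (SD, n = 3), and 11.2% of the exonic bases of E2f8 overlap a gene on the opposite strand. Mybl1, a MYB family transcription factor gene, and Dscc1, a cohesion loading gene, had log2 fold changes of 0.99 and 0.91 at 24 h means of 6.16 and 3.75 CPM. By symbol, 14 of 33 tested kinesin genes (Kif) and 15 of 21 centromere protein genes (Cenp) passed higher and 0 of either lower. Of all genes 9.67% passed higher and 7.76% lower.

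Of the rises outside this list, the 12 largest by the naming rule were in genes of varied function. That rule admitted only called genes whose groups did not overlap, so the separation given for each was fixed by the rule. Of all tested genes, 35.5% had no overlap in either direction. S100a14 (GRCm38, ENSMUSG00000042306.11, chromosome 3, 90526856 to 90528837), which encodes a calcium-binding protein of epithelia, measured 8.59, 7.55 and 7.38 CPM at 0 h and 19.5, 17.7 and 15.2 CPM at 24 h. All 3 treated libraries were above every starved one, a 2.23-fold rise (log2 change 1.16 with an SE of 0.096 and edgeR adjusted p = 6.26e-07). It was higher at 24 h than at 12 h as well, by 0.50 on the log2 scale (edgeR adjusted p = 0.00459). Tigit, best known as an inhibitory receptor of T and NK cells, stood at 8.02, 7.76 and 8.07 CPM at 0 h and 19.1, 17.8 and 16.2 CPM at 24 h, again without overlap (log2 change 1.15 with an SE of 0.081 and edgeR adjusted p = 1.96e-07). Its level lay above the summed level of the 15 leukocyte markers in every library, and Ptprc, which encodes the pan-leukocyte antigen CD45, had means of 0.095 CPM at 0 h and 0.0848 CPM at 24 h. Ulbp1, which encodes a stress-induced ligand of the NK cell receptor NKG2D, rose from 5.14 ± 1.24 CPM to 10.7 ± 0.755 CPM (SD, n = 3) (log2 change 1.04 with an SE of 0.13 and edgeR adjusted p = 3.02e-05). At 12 h it was already at 10.2 CPM.

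Spp1, the gene of the secreted phosphoprotein osteopontin, was the only called higher gene outside the cell cycle list with a mean over 100 CPM. Its libraries measured 441, 475 and 452 CPM at 0 h and 892, 886 and 891 CPM at 24 h, without overlap (log2 change 0.96 with an SE of 0.040 and edgeR adjusted p = 2.81e-10), and 18.8% of its exonic bases lie under another gene on the same strand. Tmem132c, a transmembrane protein gene, and Tfcp2l1, an epithelial transcription factor gene, rose by 0.95 and 0.78 on the log2 scale. Gch1, which encodes the first enzyme of tetrahydrobiopterin synthesis, measured 4.76, 6.87 and 6.42 CPM at 0 h and 10.5, 10.3 and 10.3 CPM at 24 h, and the groups did not overlap (log2 change 0.77 with an SE of 0.12 and edgeR adjusted p = 0.000176). Mxd3, a MAX dimerization partner linked to proliferation, rose by 0.83 and Mdm1, a centriole protein gene, by 0.83. Both are among the further division and repair genes that were set aside above in the count of directions. Aldh1l2, an ATF4 target, completes the 12 and is given with that list. Smtn, a smooth muscle cytoskeleton gene, rose from 26.2 ± 2.41 CPM to 45.1 ± 3.2 CPM (SD, n = 3), with 16.3% of its exonic bases under an opposite-strand gene. The rise of Eda2r, a TNF receptor family gene that p53 is known to induce, was 0.86 (edgeR adjusted p = 0.027). That call was lost in 4 of 6 leave-one-out fits, without 0 h replicates 1 or 3 or 24 h replicates 2 or 3, with the smallest value, 0.67, without 24 h replicate 2, and with DESeq2 (adjusted p = 0.0896).

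The 12 largest falls by the same rule included Aifm3, Cps1, Neu3 and Apof, and here too the rule fixed that the groups did not overlap. Cps1 (GRCm38, ENSMUSG00000025991.8, chromosome 1, 67123026 to 67231259) encodes carbamoyl phosphate synthetase 1, the mitochondrial entry enzyme of the urea cycle. Its libraries measured 304, 323 and 296 CPM at 0 h and 163, 163 and 166 CPM at 24 h, so the treated level was 0.534 of the starved one with little spread (log2 change -0.91 with an SE of 0.050 and edgeR adjusted p = 1.61e-08). Between 12 and 24 h it fell further, with a log2 change of -0.38 (edgeR adjusted p = 0.0003996). Aifm3, a gene of the apoptosis-inducing factor family, measured 18.1, 17.9 and 16.7 CPM at 0 h and 11, 8.4 and 8.33 CPM at 24 h, and all 3 treated values were below the starved range (log2 change -0.93 with an SE of 0.11 and edgeR adjusted p = 1.62e-05). Steap4, a metalloreductase gene that androgen is known to regulate, was the most abundant of these 12 after Cps1. It measured 109, 89.2 and 101 CPM at 0 h and 63.4, 56 and 64.2 CPM at 24 h, without overlap (log2 change -0.71 with an SE of 0.065 and edgeR adjusted p = 1.50e-06).

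Neu3, a plasma membrane sialidase gene, changed by -0.83 and Apof, an apolipoprotein gene, by -0.83. Sytl3, which encodes a RAB27 effector, changed by -0.81, and Rab3il1, which encodes an exchange factor for RAB proteins, by -0.80. Nrbp2, a pseudokinase gene, changed by -0.80, Fam161a, a ciliary gene, by -0.80, and Entpd3, an ectonucleotidase gene, by -0.67. For Cxcl17, a mucosal chemokine gene, the change of -0.72 became -0.57 without 0 h replicate 1, short of 1.5-fold. Gdpd2, a glycerophosphodiesterase gene with 17.3% of its exonic bases under an opposite-strand gene, changed by -0.68, or -0.57 without 24 h replicate 3. At the other 10 of these 12 falls, and at 11 of the 12 rises, the call held in all 6 leave-one-out fits.

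**Figure D4:**
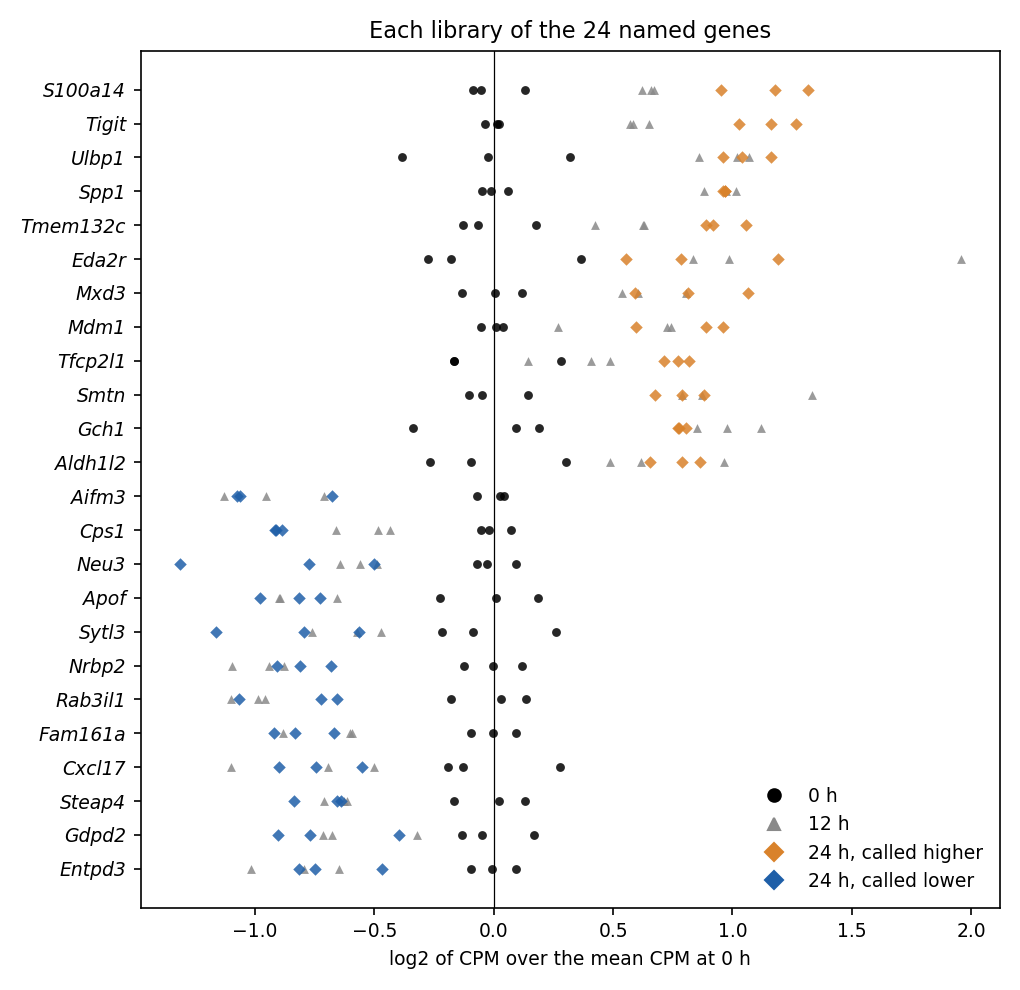
Each library of the 12 largest rises and 12 largest falls outside the cell cycle list, as log2 of its CPM over the mean at 0 h (x axis), with circles for 0 h, triangles for 12 h and diamonds for 24 h. The naming rule required that the 24 h diamonds not overlap the 0 h circles, and in S100a14, Tigit and Cps1 they also lie beyond the 12 h triangles.

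In absolute level, the largest gains were in abundant genes whose fold change was small. Pgk1, a glycolytic kinase gene, rose from 5775 ± 416 CPM to 6537 ± 119 CPM (SD, n = 3), Tpt1, which encodes a growth-related tubulin-binding protein, from 3573 ± 235 CPM to 4236 ± 33.1 CPM (SD, n = 3), and Scd2, a fatty acid desaturase gene, from 4461 ± 281 CPM to 4895 ± 134 CPM (SD, n = 3). Spp1, given above, ranked between Tpt1 and Scd2 in size of gain. On the log2 scale the first of these was 0.18 (edgeR adjusted p = 0.00908). Scd2 passed with edgeR adjusted p = 0.0445 and lost this in 5 of 6 leave-one-out fits, all but that without 0 h replicate 2. The largest losses were in mt-Co1, Hsp90ab1, mt-Cytb and Igfbp5, and that of mt-Co1 lost its adjusted p in 3 leave-one-out fits. Igfbp5, a secreted binding protein for insulin-like growth factors, measured 1300.2, 1202 and 1193 CPM at 0 h and 847, 839 and 838 CPM at 24 h. Every treated library was below every starved one (log2 change -0.55 with an SE of 0.041 and edgeR adjusted p = 2.55e-07). Hsp90ab1, a cytosolic chaperone gene, changed by -0.13, and its adjusted p was lost without any of the 3 libraries at 24 h.

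Apart from the cell cycle list, the ATF4 targets had the largest share of members passing among the 28 lists with at least 10 tested members, at 78.3% higher. ATF4 is the transcription factor of the amino acid response and of eIF2 kinase signaling, and its targets make and import amino acids and charge tRNAs. Of 46 tested members, 36 passed higher and 1 lower, against a background of 9.67% and 7.76% of all genes, with a median log2 fold change of 0.30 beside -0.0065 for all genes. In the leave-one-out fits, from 31 to 36 members passed higher and 1 lower. The lists and their members were chosen with earlier results of these data known, so these shares describe and do not test. Aldh1l2, a mitochondrial folate enzyme gene with 14.1% of its exonic bases under an opposite-strand gene, rose from 29.7 ± 6.19 CPM to 50.7 ± 3.7 CPM (SD, n = 3). Nupr1, a stress-induced chromatin protein gene, measured 20.1, 24.8 and 22.2 CPM at 0 h and 35.9, 39.4 and 34.6 CPM at 24 h, and its groups did not overlap (log2 change 0.71 with an SE of 0.097 and edgeR adjusted p = 7.17e-05). Chac1, which encodes a glutathione-degrading enzyme, measured 20.3, 22.4 and 19 CPM at 0 h and 31, 34.6 and 33.7 CPM at 24 h, also without overlap (log2 change 0.68 with an SE of 0.10 and edgeR adjusted p = 0.000139). Both had reached these levels at 12 h, with means of 36.1 and 34.7 CPM.

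Further members are named here by role after their values were seen, and 9 of the 46 did not pass. Atf4 itself rose by 0.43 and its partners and cofactors Cebpb, Atf5 and Ddit3 by 0.40, 0.47 and 0.46. Among biosynthetic enzymes, Asns, which makes asparagine, rose by 0.47, Cth, which makes cysteine from cystathionine, by 0.66, and the serine pathway genes Phgdh, Psat1 and Psph by 0.22, 0.26 and 0.39. The tRNA synthetase genes Cars and Aars rose by 0.56 and 0.46, and Lars and Wars by 0.17 and 0.17, which fell short of the adjusted p in 3 and 1 leave-one-out fits, for both without 0 h replicate 1. The transporter genes Slc7a11 and Slc3a2, whose products import cystine together, rose by 0.50 and 0.29. Cbs, which makes cystathionine one step ahead of Cth, was the member that fell, with a log2 change of -0.41 (edgeR adjusted p = 0.00204). Trib3, a pseudokinase that restrains ATF4, rose by 0.60, and its 1.5-fold call was lost without 0 h replicate 3 (0.56) or 24 h replicate 2.

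To show the letters these genes share, the RefSeq promoters (GRCm38.p6, from 250 bases before to 50 after the start) of Chac1 and Nupr1 follow, read 5′ to 3′ along the gene, with each match to a searched motif in capitals. In both the match is the C/EBP-ATF response element core TGATGNA, here on the reverse strand, which is the element ATF4 binds with its partners.
Chac1 (chr2:119350992-119351291, plus strand): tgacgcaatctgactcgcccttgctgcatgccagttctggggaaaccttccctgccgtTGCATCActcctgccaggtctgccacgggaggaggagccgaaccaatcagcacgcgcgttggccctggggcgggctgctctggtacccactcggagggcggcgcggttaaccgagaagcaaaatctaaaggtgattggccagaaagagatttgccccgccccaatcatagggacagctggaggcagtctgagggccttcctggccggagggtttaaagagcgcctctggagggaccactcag
Nupr1 (chr7:126625421-126625720, minus strand): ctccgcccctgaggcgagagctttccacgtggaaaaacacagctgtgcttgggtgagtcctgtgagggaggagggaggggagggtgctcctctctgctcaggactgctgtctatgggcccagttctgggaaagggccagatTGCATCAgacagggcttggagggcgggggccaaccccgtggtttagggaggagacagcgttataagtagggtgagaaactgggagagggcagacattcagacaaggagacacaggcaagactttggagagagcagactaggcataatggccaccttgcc
Among 44 promoters of 37 matched ATF4 targets, 43.2% held this core on either strand. It was in 18.2% of 77 promoters of called higher genes outside the cell cycle list, in 10.9% of 64 promoters of called lower genes and in 7.2% of 11635 promoters of all tested genes that matched. These shares are descriptions and a match is not a binding site.

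For comparison, the promoter of Fbxo5 is shown because 96 of the 191 called rises were on the cell cycle list. Its capitals mark an E2F core (TTNGCGC), then a C/EBP-ATF core and last a cell cycle homology region (TTTGAA), both of these on the reverse strand. All motifs were searched on both strands, and no printed match overlaps another.
Fbxo5 (chr10:5805416-5805715, minus strand): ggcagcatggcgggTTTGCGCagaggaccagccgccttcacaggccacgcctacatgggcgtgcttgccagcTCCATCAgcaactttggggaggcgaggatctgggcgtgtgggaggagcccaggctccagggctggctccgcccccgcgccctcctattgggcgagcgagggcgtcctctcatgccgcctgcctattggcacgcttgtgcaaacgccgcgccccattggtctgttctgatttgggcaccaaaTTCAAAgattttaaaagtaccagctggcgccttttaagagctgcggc
The E2F core was in 29.8% and the cell cycle homology region in 44% of 84 promoters of called cell cycle genes. Called lower genes had these in 4.69% and 14.1% of promoters, and all tested genes in 11.2% and 12%. Called higher genes outside the list lay between, with 15.6% and 24.7%, and some of them are division genes that the list lacks. The promoter of Kif18a held an E2F core and no cell cycle homology region. That of Igfbp5, which fell, also held an E2F core.

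The unfolded protein response, which shares the kinase PERK with the ATF4 pathway and otherwise runs through XBP1 and ATF6, gave more falls than rises. Of 28 tested members, 1 passed higher and 8 lower, none reached 1.5-fold, and the list median on the log2 scale was -0.08. From 5 to 7 members passed lower in the leave-one-out fits. Xbp1 measured 455, 385 and 395 CPM at 0 h and 353, 335 and 340.4 CPM at 24 h, and each treated library was below the starved range (log2 change -0.26 with an SE of 0.051 and edgeR adjusted p = 0.00159). Syvn1, a ubiquitin ligase gene of endoplasmic reticulum quality control, changed by -0.21. Herpud1, an endoplasmic reticulum degradation gene that ATF4 is also known to induce, went the other way and measured 125, 119 and 119 CPM at 0 h and 151, 153 and 149 CPM at 24 h (log2 change 0.32 with an SE of 0.038 and edgeR adjusted p = 1.52e-05). Of 34 heat shock and chaperone genes, 3 passed higher (8.82%) and 2 lower (5.88%), near the 9.67% and 7.76% of all genes. Hspa14 (0.22) and Dnajb1 (0.19) were among the higher, and Dnajb6 was among the lower, at -0.15. The adjusted p of Dnajb6 was lost in 5 leave-one-out fits and that of Hspa14 without 24 h replicate 2.

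**Figure D5:**
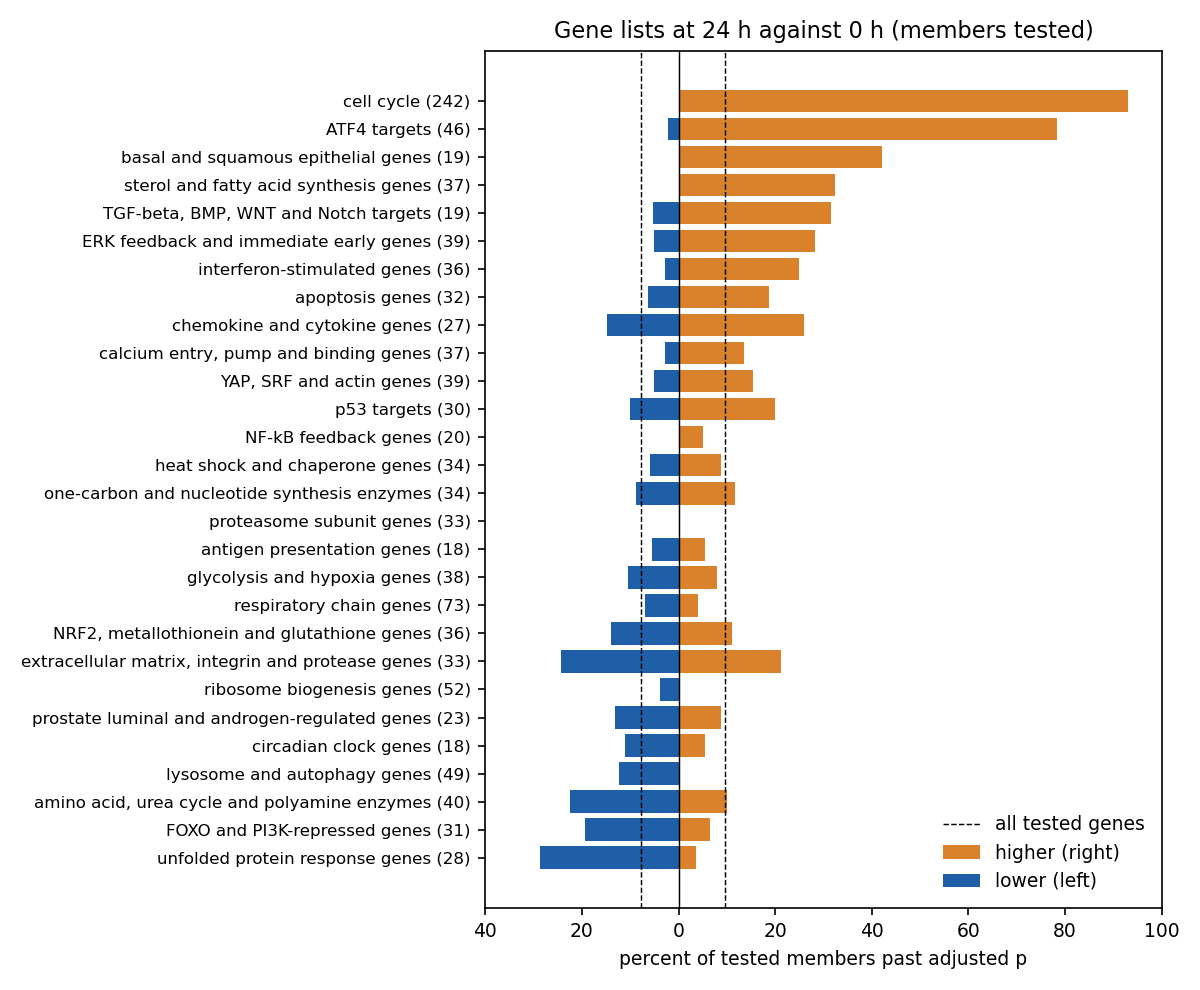
Percent of tested members of each gene list (members tested in parentheses) with an edgeR adjusted p of at most 0.05 at 24 h against 0 h, higher to the right and lower to the left of 0, for the 28 lists with at least 10 tested members. Dashed lines mark all tested genes, 9.67% higher and 7.76% lower, and the cell cycle list and ATF4 targets stand out to the right. The lists were chosen with earlier results of these data known, so the shares describe and do not test.

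Immune genes moved in both directions. Of 27 tested chemokine and cytokine genes, 7 passed higher (25.9%) and 4 lower (14.8%), against 9.67% and 7.76% of all genes. Of these, 5 of the higher and 2 of the lower were called, beside 1.68% and 0.589% of all genes. Ccl5, which draws T cells and monocytes, measured 1.92, 2.16 and 1.54 CPM at 0 h and 4.06, 5.92 and 4.97 CPM at 24 h, with every treated library above every starved one (log2 change 1.41 with an SE of 0.18 and edgeR adjusted p = 2.79e-05). At 12 h its mean was 1.71 CPM, and 24 h was higher than 12 h by 1.55 on the log2 scale (edgeR adjusted p = 0.000182). The neutrophil chemokine gene Cxcl2 rose from 1.58 ± 0.45 CPM to 3.23 ± 0.943 CPM (SD, n = 3), a call that was lost without 0 h replicates 1 or 3 or 24 h replicates 2 or 3, and its smallest change was 0.75. With DESeq2 and limma-voom its adjusted p was 0.0765 and 0.0734. Its close paralog Cxcl1 measured 8.98, 11.1 and 9.87 CPM at 0 h and 15.7, 18.5 and 16.3 CPM at 24 h and kept its call in all 6 such fits (log2 change 0.74 with an SE of 0.13 and edgeR adjusted p = 0.000536). Cxcl5, from the same cluster on chromosome 5, rose by 0.61 and lost its call in 3 of them, with the smallest value, 0.51, without 0 h replicate 1. In the other direction went Cxcl17, given above, Tnfsf10, the gene of the death ligand TRAIL (-0.72), and Tgfb3 and Tgfb2 (-0.44 and -0.34). Cxcl1, Cxcl5, Tnfsf10, Tgfb3 and Tgfb2 were named after their values were seen.

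The promoters of Cxcl1 and Cxcl2 each hold the NF-kB site (GGG, any 2 bases, TT, any base and CC) at 2 places, in capitals. The first match in Cxcl1 is on the reverse strand. Of the marked letters, only GGGAATTTCC is shared by both paralogs.
Cxcl1 (chr5:90890995-90891294, plus strand): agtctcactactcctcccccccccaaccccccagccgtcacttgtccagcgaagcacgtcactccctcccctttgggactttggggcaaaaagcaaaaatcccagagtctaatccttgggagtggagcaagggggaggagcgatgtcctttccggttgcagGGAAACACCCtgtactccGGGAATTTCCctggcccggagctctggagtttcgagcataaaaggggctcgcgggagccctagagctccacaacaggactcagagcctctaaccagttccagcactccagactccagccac
Cxcl2 (chr5:90903649-90903948, plus strand): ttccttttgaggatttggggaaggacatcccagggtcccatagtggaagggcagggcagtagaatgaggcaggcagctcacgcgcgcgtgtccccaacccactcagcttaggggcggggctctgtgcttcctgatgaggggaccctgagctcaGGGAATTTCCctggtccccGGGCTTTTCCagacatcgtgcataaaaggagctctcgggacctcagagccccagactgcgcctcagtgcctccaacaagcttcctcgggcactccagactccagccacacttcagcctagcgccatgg
The NF-kB site, on either strand, was in 15.4% of 26 chemokine and cytokine promoters. It was in 7.79% of promoters of called higher genes outside the cell cycle list, 6.25% of called lower and 5.31% of all tested genes. The promoter of Steap4, which fell, also held this site. Of 20 tested NF-kB feedback genes, which encode the pathway's own inhibitors and subunits, 1 passed higher (5%, against 9.67% of all genes) and 0 lower. That was Nfkb2 (0.18, edgeR adjusted p = 0.0471), with 18.1% of its exonic bases under an opposite-strand gene and its adjusted p lost in all 6 leave-one-out fits.

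Of 36 tested interferon-stimulated genes, 9 passed higher (25%) and 1 lower (2.78%), against 9.67% and 7.76% of all genes. Of these, 2 were called, and the list median on the log2 scale was 0.20. The summed level of the list did not rise, at 1043 to 1062 CPM at 0 h and 1009 to 1044 CPM at 24 h. From 3 to 8 passed higher in the leave-one-out fits, with the lowest number, 3, without 24 h replicate 2 and 4 without 0 h replicate 3. Irf7, the interferon regulatory factor that amplifies the response, measured 1.28, 1.45 and 1.92 CPM at 0 h and 3.21, 2.84 and 2.45 CPM at 24 h (log2 change 0.85 with an SE of 0.19 and edgeR adjusted p = 0.00523). Every treated library was above the starved ones at these low levels. Herc6, an ISG15 ligase gene, rose from 4.04 ± 0.651 CPM to 6.05 ± 0.869 CPM (SD, n = 3), with a log2 fold change of 0.56. Xaf1, a proapoptotic interferon target, was at 0.635 CPM at 0 h and 1.31 CPM at 24 h, and its call was lost without 0 h replicates 2 or 3 or 24 h replicate 2 and with limma-voom (adjusted p = 0.0532). Samhd1, a nucleotide hydrolase gene that restricts viruses, was the member that fell (-0.22, edgeR adjusted p = 0.000183). The interferon-stimulated response element, GAAA, any 2 bases and GAAA on either strand, was in 14 of 35 promoters of this list. The promoter of Irf7 held no match to it or to any other searched motif. The element was in 9.09% of called higher genes outside the cell cycle list, 1.56% of called lower and 2.92% of all tested genes. Among 18 antigen presentation genes, H2-K1, a class I heavy chain gene, passed higher (0.14), which was lost in 5 of 6 leave-one-out fits, and Erap1, a peptide-trimming aminopeptidase gene, lower (-0.18), with 11.5% of its exonic bases under an opposite-strand gene and its adjusted p lost in 4 of those fits. The adjusted p of Herc6 was lost without 24 h replicate 2.

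Of 39 tested ERK feedback and immediate early genes, 11 passed higher (28.2%) and 2 lower (5.13%), against 9.67% and 7.76% of all genes. The other 26 did not pass, none was called, and 9 to 12 passed higher in the leave-one-out fits. Dusp7, a phosphatase gene that acts on ERK, measured 101, 91.5 and 89.9 CPM at 0 h and 136, 134 and 135 CPM at 24 h, and no library overlapped (log2 change 0.52 with an SE of 0.045 and edgeR adjusted p = 7.43e-07). Nr4a1, an orphan nuclear receptor gene, rose by 0.47, and Dusp6, Etv4, Etv5 and Ccnd1, named after their values were seen, by 0.37, 0.17, 0.43 and 0.24. Fos, the archetypal immediate early gene, measured 20.1, 22.6 and 20.7 CPM at 0 h and 14.3, 14.9 and 15.1 CPM at 24 h and so was lower in all treated libraries (log2 change -0.52 with an SE of 0.087 and edgeR adjusted p = 0.000467). At 12 h it was at 22.2 CPM, close to the starved level. The AP-1 site TGANTCA, to which FOS and JUN proteins bind, was in 14.3% of promoters of called higher genes outside the cell cycle list, in 12.5% of called lower and in 5.07% of all tested genes.

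Of 31 tested genes that FOXO factors raise and PI3K signaling lowers, 6 passed lower (19.4%) and 2 higher (6.45%). The shares of all genes were 7.76% lower and 9.67% higher. In the leave-one-out fits 4 to 6 passed lower. Sesn3, a sestrin gene that restrains mTORC1, measured 99.7, 110.1 and 108 CPM at 0 h and 78.7, 80.2 and 80.01 CPM at 24 h, with each treated library below the starved range (log2 change -0.41 with an SE of 0.044 and edgeR adjusted p = 5.96e-06). Fbxo32, the atrophy ubiquitin ligase gene, changed by -0.39, while Bcl6, a transcriptional repressor gene, rose by 0.48 (edgeR adjusted p = 0.0193), which was lost without 0 h replicates 1 or 3 or 24 h replicate 2 and with DESeq2 (adjusted p = 0.0744). The receptors themselves moved little. Erbb3, which encodes HER3, measured 87.3, 82.7 and 78.5 CPM at 0 h and 94.2, 90.8 and 89.1 CPM at 24 h, higher in all 3 treated libraries but short of the threshold (log2 fold change 0.14, edgeR adjusted p = 0.109). It passed when the 2 groups were fitted alone (edgeR adjusted p = 0.0237) and with no filter on low counts (edgeR adjusted p = 0.0187). Erbb2 and Egfr changed by -0.17 and -0.22 (edgeR adjusted p = 0.0174 and 0.0131), and each lost its adjusted p in at least 3 of 6 leave-one-out fits. Myc (0.08, edgeR adjusted p = 0.481) did not pass. Whether reads of the line's MYC transgene were counted under Myc is not given, so the level of the transgene is not known from this value.

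Changes that passed among lipid synthesis genes were rises, and most of those on the list of amino acid, urea cycle and polyamine enzymes were falls. Asns, Cth, Phgdh, Psat1 and Psph, given with the ATF4 targets, rose, while Cbs fell. Of 37 tested sterol and fatty acid synthesis genes, 12 passed higher (32.4%) and 0 lower, against 9.67% and 7.76% of all genes, with a median of 0.11. In the leave-one-out fits 6 to 15 passed higher, with 7 without 0 h replicate 1 and 6 without 24 h replicate 3. Acacb, an acetyl-CoA carboxylase gene, rose from 23 ± 3.3 CPM to 33.1 ± 1.47 CPM (SD, n = 3), Msmo1, a sterol demethylation gene, by 0.26, and Hmgcs1, the HMG-CoA synthase gene of cholesterol synthesis, by 0.24 with 12.1% of its exonic bases under an opposite-strand gene. Of 40 tested amino acid, urea cycle and polyamine enzymes, 9 passed lower (22.5%) and 4 higher (10%). In the leave-one-out fits 5 to 7 passed lower, with 5 without 0 h replicate 3 or 24 h replicate 2. Beside Cps1, the lower members included Bckdha, a subunit of the branched-chain ketoacid dehydrogenase (-0.41), Glul, glutamine synthetase (-0.25), and Glud1, glutamate dehydrogenase (-0.18). The higher ones included Gpt2, an alanine aminotransferase that is also an ATF4 target (0.41), and Bcat1, the cytosolic branched-chain aminotransferase (0.43). Bckdha, Glul and Glud1 were named after their values were seen.

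Of 34 folate-linked and nucleotide synthesis enzymes, 4 passed higher (11.8%) and 3 lower (8.82%), near the 9.67% and 7.76% of all genes. Mthfd2 and Shmt2, mitochondrial folate enzymes, went from 106 ± 8.75 CPM to 148 ± 1.17 CPM (SD, n = 3) and from 224 ± 13.5 CPM to 292 ± 1.99 CPM (SD, n = 3), log2 changes of 0.49 and 0.38 that are shared with the ATF4 list. Dck, deoxycytidine kinase, rose by 0.35. Among 38 glycolysis and hypoxia genes, 3 passed higher (7.89%) and 4 lower (10.5%), also near the shares of all genes. Ero1l, an oxidase of the endoplasmic reticulum, rose by 0.26, Car9, a carbonic anhydrase induced by hypoxia, by 0.26, and Hk2, hexokinase 2, changed by -0.24. In the respiratory chain list of 73, 3 passed higher (4.11%), led by Uqcrq (0.30), and 5 lower (6.85%). In the leave-one-out fits 1 to 4 passed higher and 0 to 4 lower, with 0 lower without 24 h replicate 2. Cycs, the cytochrome c gene, rose by 0.20 and Ndufb5, a complex I subunit, changed by -0.16. Of these, Ero1l lost its adjusted p in 3 leave-one-out fits, Car9 and Ndufb5 in 4 and Cycs in 2, and Ero1l also fell short with DESeq2 (adjusted p = 0.0791) and Car9 with limma-voom (adjusted p = 0.0555). Of 36 NRF2, metallothionein and glutathione genes, 4 passed higher (11.1%) and 5 lower (13.9%). Gpx3, a secreted glutathione peroxidase, measured 701, 463 and 460.1 CPM at 0 h and 435, 324 and 326 CPM at 24 h, and replicate 1 was the highest at both times (log2 change -0.58 with an SE of 0.14 and edgeR adjusted p = 0.00846). Its change was -0.35 without 0 h replicate 1, and its adjusted p was lost without 24 h replicates 2 or 3 and with DESeq2 (0.0722). Slc39a10, a zinc importer, and Slc7a11 rose by 0.58 and 0.50.

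Ribosomal protein, ribosome biogenesis and proteasome genes gave 3 falls and 0 rises at the adjusted p in the fit of all libraries. Of 84 tested ribosomal protein genes 0 passed higher and 1 lower, of 52 ribosome biogenesis genes 0 and 2 (Rrp12 at -0.21 and Ddx10 at -0.14), and of 33 proteasome subunit genes 0 and 0. Without 0 h replicate 2, 0 ribosome biogenesis genes passed lower and 1 proteasome gene passed higher. Log2 fold changes of the proteasome subunits ranged from -0.056 to 0.11. Of 49 lysosome and autophagy genes, 6 passed lower (12.2%, against 7.76% of all genes) and 0 higher, and 2 to 5 passed lower in the leave-one-out fits, with 2 without 0 h replicate 1 or 24 h replicates 1 or 2 and 1 member passing higher without 24 h replicate 3. Man2b1, a lysosomal mannosidase gene, changed by -0.24, Gm2a, a ganglioside activator gene, by -0.19 and Tpp1, a lysosomal peptidase gene, by -0.16. In the leave-one-out fits, Gm2a and Tpp1 lost their adjusted p in 3, Rrp12 in 2 and Ddx10 in 5. By symbol, 15 of 211 solute carrier genes passed higher and 22 lower, with 2 and 6 called, and of 30 ABC transporter genes 0 passed higher and 4 lower. Over all tested genes 9.67% passed higher and 7.76% lower, with 1.68% and 0.589% called.

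Among genes of stratified and basal epithelium, those that passed in the fit of all libraries were higher at 24 h. The summed level of the list was 1954 to 2065 CPM at 0 h and 2017 to 2060 CPM at 24 h. Its abundant members Krt4 and Krt15, at means of 751 and 187 CPM at 0 h, did not pass, with log2 changes of 0.014 and -0.22. Of 19 tested members, 8 passed higher and 0 lower, beside a list median of 0.05, and 3 were called. From 5 to 9 passed higher in the leave-one-out fits, with 5 without 24 h replicate 1, where 1 passed lower. Krt13, a keratin of suprabasal layers, measured 3.58, 3.81 and 3.37 CPM at 0 h and 5.76, 5.05 and 6.22 CPM at 24 h, with no overlap (log2 change 0.66 with an SE of 0.12 and edgeR adjusted p = 0.000878). It was higher at 12 h, at 8.96 CPM, than at 24 h (log2 difference -0.66, edgeR adjusted p = 0.0019). Krt16 was at 0.0824 CPM at 0 h, within the limit that a count of 0 allows, and 0.351 CPM at 24 h, and its call held in only 1 of the 5 leave-one-out fits in which it was tested. Lama3, a chain of a basement membrane laminin, rose by 0.43, named after its value was seen. By symbol, 6 of 20 keratin genes passed higher, 4 of them called, and 0 lower. Of 23 prostate luminal and androgen-regulated genes 2 passed higher (8.7%) and 3 lower (13%), against 9.67% and 7.76% of all genes. The higher were Krt8 (0.34) and Tmem97 (0.13), and the lower were Steap4, Slc45a3 (-0.31) and Abcc4 (-0.18). Of these, Krt8 lost its adjusted p in 2 leave-one-out fits, Abcc4 in 3 and Tmem97 and Slc45a3 in 4, while Steap4 kept its call in all 6.

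Matrix and adhesion genes were split, with 7 of 33 higher (21.2%) and 8 lower (24.2%), against 9.67% and 7.76% of all genes. In the leave-one-out fits 3 to 8 passed higher and 3 to 7 lower. Col12a1, a fibril-associated collagen, changed by -0.60, a call lost without 0 h replicates 1 or 2 or 24 h replicates 1 or 3 and with DESeq2 (adjusted p = 0.0994), while Timp1, a protease inhibitor, rose by 0.42. Of 39 YAP, SRF and actin genes 6 passed higher (15.4%) and 2 lower (5.13%). Beside Smtn, Filip1l rose by 0.45 and Ccn2, a YAP target, by 0.26 with 23.2% of its exonic bases under an opposite-strand gene. Among 19 targets of TGF-beta, BMP, WNT and Notch, 6 passed higher (31.6%) and 1 lower (5.26%), although the list median was -0.07. From 2 to 5 passed higher in the leave-one-out fits. Id1, the inhibitor of differentiation gene that BMP induces, measured 12.6, 12.7 and 12.2 CPM at 0 h and 18.6, 20.5 and 19.6 CPM at 24 h with no overlap (log2 change 0.65 with an SE of 0.070 and edgeR adjusted p = 7.36e-06), while Smad9, a receptor-regulated SMAD of the same pathway, measured 21.4, 19.8 and 23.6 CPM at 0 h and 14.5, 13.5 and 13.6 CPM at 24 h and was lower throughout (log2 change -0.64 with an SE of 0.080 and edgeR adjusted p = 2.74e-05). Smad9 reached -0.56, short of 1.5-fold, without 0 h replicate 3. Nrarp, a Notch feedback gene, rose from a mean of 0.36 to 0.832 CPM, a log2 change of 1.21, and has 79.4% of its exonic bases under an opposite-strand gene.

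Of 30 p53 targets 6 passed higher, or 20% against 9.67% of all genes, and 3 lower, and 2 were called higher and 0 lower. From 3 to 5 passed higher in the leave-one-out fits, with 3 without 0 h replicate 3 or 24 h replicate 2. Gtse1, which is also a cell division gene, measured 11.6, 12 and 12.9 CPM at 0 h and 19.3, 21.6 and 19.6 CPM at 24 h (log2 change 0.73 with an SE of 0.077 and edgeR adjusted p = 4.82e-06), and Plk3, a stress kinase, rose by 0.51 with its adjusted p lost in 5 of 6 leave-one-out fits and with DESeq2 (0.133). Of 32 apoptosis genes 6 passed higher (18.8%) and 2 lower, with 0 and 1 called, and the numbers passing, 6 and 2, became 1 and 2 without 24 h replicate 1 and 2 and 2 without 0 h replicate 2. Fadd, a death receptor adaptor, rose by 0.30, with its adjusted p lost in 4 leave-one-out fits, and Birc2, which encodes the ubiquitin ligase cIAP1, changed by -0.29. Of 37 calcium entry, pump and binding genes 5 passed higher (13.5%, near the 9.67% of all genes) and 1 lower. The calmodulin genes Calm2 and Calm3 were among the higher, at 0.26 and 0.15. Calm3 lost its adjusted p in 5 leave-one-out fits. Atp2b4, a plasma membrane calcium pump, measured 179.9, 179 and 169 CPM at 0 h and 130.3, 144 and 142 CPM at 24 h and was lower in each treated library (log2 change -0.34 with an SE of 0.050 and edgeR adjusted p = 0.000128). Of 18 clock genes 1 passed higher (5.56%), Arntl (0.37), and 2 lower (11.1%), among them Per2 (-0.20). The adjusted p of Per2 was lost in all 6 leave-one-out fits and with DESeq2 (0.0563).

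Most markers of other cell types lay under 1 CPM, with 15 of 15 for leukocytes, 16 of 17 for fibroblasts and endothelium and 9 of 11 for neuroendocrine cells. Of the leukocyte list 2 members were tested, as were 3 of 17 fibroblast and endothelial markers and 2 of 11 neuroendocrine markers that the files list. None of these 7 passed at an edgeR adjusted p of at most 0.05 in the fit of all libraries, and 1 fibroblast and endothelial marker passed lower without 24 h replicate 2. Summed levels ran from 17.6 to 19.0 CPM at 0 h and from 16.5 to 18.8 CPM at 24 h for fibroblast and endothelial markers, and from 70.3 to 80.05 and from 69.5 to 76.8 CPM for neuroendocrine markers. Against 12 h, 33 genes (0.290%) were called at 24 h, and 572 (5.03%) passed the adjusted p. Without 24 h replicate 1 the former number was 16.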

How the data were processed

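Messenger RNA of 9 MyC-CaP libraries was sequenced, and the 3 libraries at 0 h and the 3 at 24 h are compared here. The raw gene counts were deposited by the authors in 1 table, which holds 15552 protein-coding genes on GRCm38.p6 with GENCODE annotation. Per the submitters' processing notes, reads were trimmed with Cutadapt, aligned with STAR and counted with featureCounts. Whether counting used strand, and how reads with several alignments were treated, is not given in the sources used here, so genes with near-identical copies or with overlapping neighbors are uncertain. There, 8 symbols had more than 1 identifier and were kept as separate genes. The labels call the samples biological replicates of cells plated in triplicate and do not say that the cultures were grown apart, so p-values measure only the spread between these samples.

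Genes with too few counts were removed with filterByExpr, which left 11373, and counts were scaled by the trimmed mean of M values. All 9 libraries entered 1 quasi-likelihood fit in edgeR 4.0.16 (R 4.3.3), with 24 h against 0 h and 24 h against 12 h as contrasts. P-values were adjusted over all tested genes by Benjamini and Hochberg's method. Genes passed at an adjusted p of at most 0.05 and were called when the fold change was also at least 1.5. Levels are scaled CPM, and SE is the log2 fold change over the square root of F. The procedure was tested on simulated data. Library totals and the CPM that 3 counts represent set the precision and are given in the results, and intervals and floors cover counting error only.

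Named genes were the 12 largest rises and 12 largest falls among called genes outside the cell cycle list with a mean of at least 5 CPM, no overlap between groups and an established symbol, the 3 largest rises on the cell cycle list, the 4 largest gains and losses in mean CPM, up to 3 passing members of each list by size, Erbb2, Erbb3, Egfr and Myc, and markers of other cell types among the called genes. A few genes that this rule names are not reported here. Others are said to have been chosen after their values were seen. The members, the 31 lists and the tests were chosen with earlier results of these data known. Promoters came from RefSeq (GRCm38.p6), matched by symbol for 9089 of the 11373 tested genes, and overlaps with neighboring genes from GENCODE gene models. Alternatives were other scalings, other filters, the 2 groups alone, a replicate block, DESeq2 1.42.0, limma-voom (limma 3.58.1), glmTreat, a GC trend, and leaving out each library.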

Additional observations from a re-analysis of the deposited data

How the results depend on the processing

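Called genes numbered 258 in all, and glmTreat at 1.5-fold left 6, 5 higher and 1 lower, and 0 of 33 at 24 h against 12 h, since it tests the fold threshold itself. With a replicate block, 193 genes were called higher and 66 lower. Whether the numbers pair the samples was not settled, and the main fit did not pair them. Deviations of libraries with the same number correlated weakly, at 0.049, 0.098 and 0.040, against -0.062 to 0.0091 for different numbers. Each 0 h library correlated best with its own number at 24 h. Other scalings gave 188 to 193 genes called higher and 66 to 68 lower. With no filter on low counts, 53 genes were called at 24 h against 12 h, and list medians were 0.31 for basal and squamous, 0.0934 for matrix, 0.76 for fibroblast and endothelial, 1.85 for neuroendocrine and -0.0401 for amino acid genes, when genes near 0 CPM also entered, among them markers counted in 24 h replicate 2 alone, whose part was not tested. The amino acid median was -0.0422 with a filter of 1 CPM in 3 libraries, -0.0482 with the GC trend removed, an alternative chosen after seeing the data, and -0.0709 with limma-voom. The 1 CPM filter moved the share of higher genes outside the cell cycle list at the adjusted p alone from 49.8% to 53.2%.

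Leaving out 1 library at a time gave 125 to 222 genes called higher, 47 to 65 lower, 533 to 698 lower at the adjusted p alone and 16 to 36 called against 12 h. The share of called genes that were higher ran from 68.7% to 79.6%, and that outside the cell cycle list at the adjusted p alone from 49.9% to 53.4%. List medians ran from -0.087 to -0.015 for TGF-beta, BMP, WNT and Notch targets, from -0.074 to -0.046 for amino acid enzymes, from 0.043 to 0.15 for basal and squamous genes, from -0.0056 to 0.042 for calcium genes, from -0.015 to 0.053 for matrix genes, from -0.012 to 0.011 for heat shock genes, from -0.052 to -0.012 for lysosome genes, from -0.0010 to 0.035 for proteasome genes, from -0.043 to -0.010 for ribosome biogenesis genes and from -0.090 to -0.061 for unfolded protein response genes. Among the named genes, 1522 values kept their direction and side of the threshold, 223 kept the direction and fell short, and 2 passed newly. DESeq2 ended 8 passes of named genes and limma-voom 3. Apart from glmTreat, where the cause is its own construction, the cause of these shifts was not tested.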

Other observations

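The lists and genes in this section were chosen after their values were seen, so their counts describe and do not test. Genes of acute phase and plasma proteins, many of them made by liver, gave falls and no rises at the adjusted p. Of 19 tested members 6 passed lower and 0 higher, 4 of them called, and the median log2 change was -0.51. The 6 included Apof, Igfbp5 and Gpx3, given above. Lbp, the lipopolysaccharide binding protein, measured 98, 82.9 and 85.1 CPM at 0 h and 63.5, 53.7 and 55.9 CPM at 24 h, with each treated library below each starved one (log2 change -0.62 with an SE of 0.068 and edgeR adjusted p = 7.61e-06), and its call was lost without 0 h replicate 1 (-0.54) or 24 h replicate 2. Hp, haptoglobin, measured 4.58, 3.74 and 4.15 CPM at 0 h and 2.19, 1.91 and 2.47 CPM at 24 h (log2 change -0.91 with an SE of 0.15 and edgeR adjusted p = 0.000432). Agt, angiotensinogen, went from a mean of 2.58 to 1.09 CPM, with a log2 fold change of -1.24. Cp, ceruloplasmin, the most abundant member, was at 1799 and 1725 CPM and did not pass (edgeR adjusted p = 0.397).

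Among enzymes of ketone, branched-chain amino acid and fatty acid breakdown, 15 of 40 tested members passed lower and 0 higher, and 10 to 14 lower in the leave-one-out fits. Abat, the transaminase that degrades GABA, went from 144 to 95.1 CPM (log2 change -0.59 with an SE of 0.040 and edgeR adjusted p = 1.40e-07), and its call was lost without 0 h replicate 1 or 24 h replicate 2. Aldh6a1, of valine breakdown, and Cpt1a, which admits fatty acids to mitochondria, changed by -0.28 and -0.27. All 13 mitochondrially encoded genes had a log2 fold change below 0 and 7 passed lower (5 to 7 in the leave-one-out fits), from -0.26 in mt-Cytb to -0.15 in mt-Co1, and mitochondrial genes took 1.41% to 1.5% of counts at 0 h and 1.21% to 1.36% at 24 h.

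Several large changes lay in genes under the level limit for naming. Rab11fip5, a recycling endosome gene, measured 1.77, 2.68 and 1.89 CPM at 0 h and 7.4, 7.84 and 6.88 CPM at 24 h (log2 change 1.78 with an SE of 0.19 and edgeR adjusted p = 5.99e-06), the largest called rise above 1 CPM. Gabrp, a GABA receptor subunit gene, and Ifitm1, an interferon-induced membrane protein gene, were the largest called falls, at -2.27 and -1.97. Ifitm1 measured 1.56, 1.39 and 1.74 CPM at 0 h and 0.459, 0.239 and 0.484 CPM at 24 h and so went against the median of the interferon list. Krt23 and Krt32, keratin genes, rose by 1.27 and 1.20, and Ppbp, a platelet chemokine gene, by 0.87.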
